A study of Mus musculus with 10 samples.

Results

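Cytosolic ribosomal protein genes, meaning the genes for the proteins of the large (Rpl) and small (Rps) ribosomal subunits, were followed through the differentiation of mouse embryonic stem cells (ESC) into primordial germ cell-like cells (PGCLC). Members were chosen by symbol alone, as Rpl or Rps followed by a number together with *Rplp0*, *Rplp1*, *Rplp2* and *Rpsa*, leaving out names with -ps, the Rps6k kinases and *Rpl39l*. The rule found 86 of the 27998 genes of the E14Tg2a table, 52 of the large and 34 of the small subunit, and 85 of the 32285 genes of the R1 table, which has no *Rpl6l*. No measured value entered the rule, but it was chosen with earlier results of these data known. The rule also takes in 8 paralogs or copies of usual members (*Rpl3l*, *Rpl6l*, *Rpl7l1*, *Rpl10l*, *Rpl22l1*, *Rpl36al*, *Rps27l* and *Rps27rt*) and *Rps19bp1*, which encodes a protein that binds the small-subunit protein Rps19. It misses ribosomal proteins whose genes go by other names, of which *Fau* and *Rack1* are given separately.

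Single cells were profiled with a droplet-based kit that counts the 3′ ends of transcripts as unique molecular identifiers (UMIs), with 1 library per condition. E14Tg2a, a wild type male ESC line, gave 8 libraries: ESC in serum-free medium with inhibitors of MEK and GSK3β plus LIF (2i ESC), epiblast-like cells (EpiLC) after 1, 2 and 3 days in Activin A, bFGF and KSR, epiblast stem cells passaged in Activin A and bFGF (EpiSC), embryoid bodies (EB) at days 2 and 4 made by floating culture of d2 EpiLC with BMP4, SCF, LIF and EGF, and ESC in serum and LIF (S+L ESC). R1, another male ESC line, gave d4 EB of wild type cells (WT) and of dCD cells, a line derived from R1 by picking single cells, whose MLL3 and MLL4 carry substitutions that remove their histone methyltransferase activity. Only some cells of an EB become PGCLC, and the study lists 91 such cells in d2 EB and 44 in d4 EB of E14Tg2a.

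Each E14Tg2a library held 227 to 537 cells with a median of 21658 to 36750 UMIs per cell, and the R1 libraries held 1416 (WT) and 1699 (dCD) cells with medians of 13187.5 and 11751 UMIs. The R1 libraries were made with a later version of the kit and counted on another gene table, so levels are not compared between the tables. Ratios formed within each table are set side by side only as a description. With 1 library per condition no test was run, stage or genotype and library cannot be told apart, and every interval below is an exact 95% interval for counting error only. Of the 28 pairs of E14Tg2a libraries none shared more than 2 cell barcodes, and the R1 libraries shared 0. The labels of 2i ESC and d2 EpiLC held against markers: the summed level of 8 naive pluripotency genes was 1652 counts per 1000000 UMIs (CPM) and 62.2 CPM. That of 6 PGC genes was 455 CPM in the listed d2 PGCLC and 43.2 CPM in the other d2 EB cells. The study found the listed cells by core PGC genes, so this level does not check the list. The dCD substitutions do not show in UMI counts, and *Kmt2c* and *Kmt2d*, which encode MLL3 and MLL4, lay at 47.5 and 29.4 CPM in WT and at 53.8 and 29.1 CPM in dCD.

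A cytosolic ribosome holds a single copy of nearly every ribosomal protein, so growing cells make these proteins in matched amounts and their mRNAs are among the most abundant of a cell. In mammals most of these mRNAs start with a C followed by a run of C and T bases, the 5′ terminal oligopyrimidine tract, through which the mTOR pathway and Larp1 control their translation. Several members have paralogs that enter the ribosome in the place of the usual protein in some tissues, among them *Rpl10l*, *Rpl3l* and *Rpl39l*, of which *Rpl10l* and *Rpl39l* are known from the testis and *Rpl3l* from muscle.

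The annotated starts of 10 members are shown because the tract is the known shared feature of these mRNAs, with and without a run at the start. Each line gives the 30 bases around the RefSeq start in the mouse build GRCm38.p6, 15 on each side, read on the gene's strand, and capitals mark a run of at least 5 C or T bases that covers the start.
Rps6 (chr4:86857353-86857382, minus strand): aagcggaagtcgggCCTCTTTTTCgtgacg
Rpl28 (chr7:4792950-4792979, plus strand): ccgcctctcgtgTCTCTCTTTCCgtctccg
Rpl14 (chr9:120571502-120571531, plus strand): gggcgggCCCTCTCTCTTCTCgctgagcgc
Rpl38 (chr11:114668565-114668594, plus strand): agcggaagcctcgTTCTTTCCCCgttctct
Rpl7a (chr2:26910792-26910821, plus strand): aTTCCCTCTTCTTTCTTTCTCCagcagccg
Rps27 (chr3:90213634-90213663, minus strand): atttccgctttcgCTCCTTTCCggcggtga
Rps27l (chr9:66946071-66946100, plus strand): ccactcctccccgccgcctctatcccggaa
Rpl22l1 (chr3:28805493-28805522, plus strand): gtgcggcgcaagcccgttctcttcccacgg
Rpl10l (chr12:66284387-66284416, minus strand): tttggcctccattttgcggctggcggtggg
Rps12 (chr10:23787195-23787224, minus strand): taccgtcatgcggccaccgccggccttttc
The promoter table held 77 starts of 65 members, and 21 of the 77 (27.3%) lay in such a run, against 10.1% of all 32851 starts in the table. The starts of *Rps27l*, *Rpl22l1*, *Rpl10l* and *Rps12* did not, and neither did those of the usual members *Rpl22* and *Rpl10*, not printed here, while that of *Rps28* lay in a run of 4. An annotated start can lie some bases from the one a cell uses, so a missing run says only that these letters are not at that position.

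Members took more than 1 in 3 UMIs in every E14Tg2a library. Their share of all UMIs was 38.8% in 2i ESC, 33.8%, 34.7% and 39.0% on days 1, 2 and 3 of EpiLC, 34.5% in EpiSC, 36.9% and 34.3% in EB of days 2 and 4, and 42.1% in S+L ESC. S+L ESC was thus highest and d1 EpiLC lowest, and the order did not follow the days of differentiation, since d3 EpiLC stood above both d2 EpiLC and EpiSC. A set of 11 immediate early and stress genes, a sign of handling, was also higher in d3 EpiLC. It summed to 1034 CPM there, 232 in d2 EpiLC and 284 in EpiSC, but also to 1211 in d4 EB, 752 in d2 EB and 266 in S+L ESC. The order of the libraries by this set was thus not their order by share, and its part in the share was not tested. In R1 the share was 21.1% in WT and 23.5% in dCD d4 EB. Counting error is small at this depth, with an interval of 38.7% to 38.8% in 2i ESC, and the spread over the cells of a library is far wider.

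**Figure D1:**
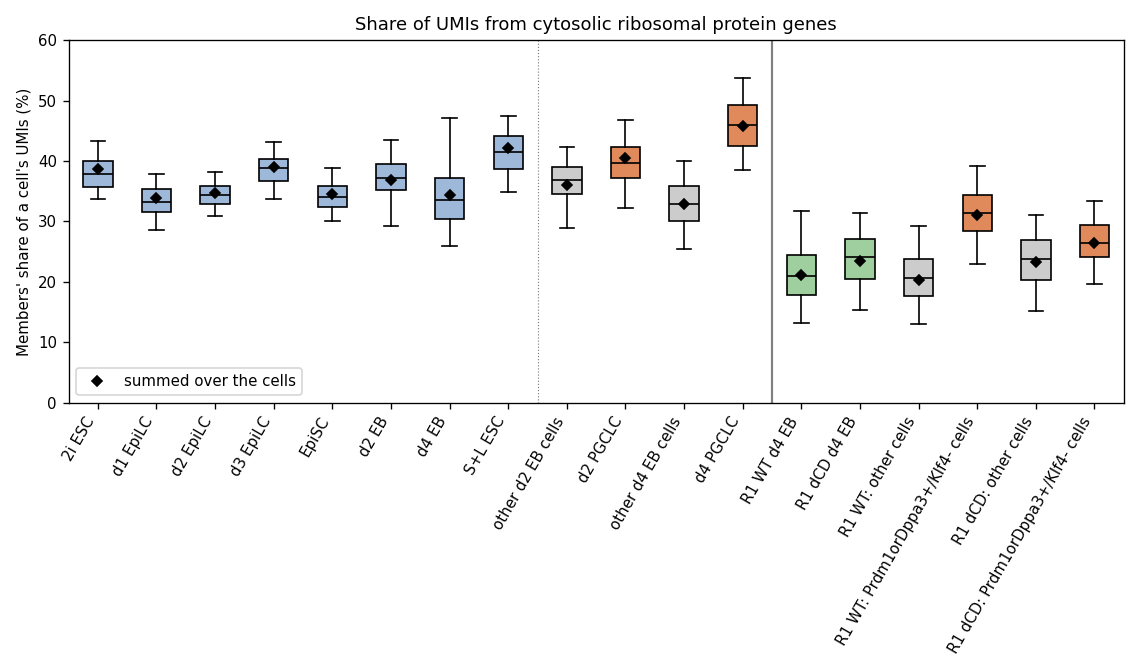
Share of a cell's UMIs from the members (%), by library and, within EB, for PGCLC against the other cells; boxes show quartiles over cells, whiskers the 5th to 95th percentile and diamonds the share of UMIs summed over cells. E14Tg2a stands left of the solid line and R1 right of it; the listed d4 PGCLC have a median of 45.9% against 32.9% in the other d4 EB cells.

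Among the E14Tg2a libraries the share varied least from cell to cell in d2 EpiLC, with an interquartile range of 2.93 percentage points, and most in d4 EB (6.73) and S+L ESC (5.44), with 2i ESC (4.35) close to d2 EB (4.32). The median over cells was 34.4% in d2 EpiLC with quartiles of 33.0% and 35.9%, and 33.6% in d4 EB with quartiles of 30.5% and 37.2% and a 5th to 95th percentile of 26.0% to 47.2%. In the libraries of ESC, EpiLC and EpiSC cells with more UMIs had a higher share, with Spearman correlations over cells between 0.24 (EpiSC) and 0.48 (2i ESC). The correlation was -0.0053 in d2 EB and 0.023 in d4 EB, but within d2 EB it was 0.55 in the listed PGCLC and -0.20 in the other cells. With the mitochondrial share the correlation was 0.44 in d2 EB and -0.24 in S+L ESC. Mitochondrial genes held 3.02% (d3 EpiLC) to 5.29% (d1 EpiLC) of UMIs in E14Tg2a, and their part in the differences between libraries was not tested.

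Large and small subunit members stayed in nearly the same proportion. The UMIs of large subunit members were 1.22 times those of small subunit members in both 2i ESC and d1 EpiLC and 1.31 times in d3 EpiLC, the lowest and highest of the 10 libraries, with 1.28 in R1 WT and 1.26 in dCD. Among the 7 main comparisons described below, the median log2 ratios of the subunits lay farthest apart from 2i ESC to S+L ESC, at 0.15 for large and 0.069 for small subunit members.

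Among the most abundant members over the 10 libraries were *Rpl41* (mean 9301 CPM), the smallest protein of the large subunit, *Rplp1* (8424 CPM), of the acidic stalk, *Rpl13a* (7410 CPM) and *Rps19* (7040 CPM). A UMI stands for a molecule whatever the length of the transcript, so CPM needs no division by length, but capture of short transcripts and reads shared with copies, both described below, bear on these levels. The 5 most abundant members of a library held 11.4% to 13.4% of its member UMIs in E14Tg2a and 12.4% to 12.8% in R1, so no few genes made up the family's total. Over the 8 E14Tg2a libraries the 84 members with a mean of at least 50 CPM varied less than other genes, with a median SD of log2 CPM of 0.19 against 0.36 for 2261 other genes.

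Within the family some members kept a nearly fixed share of the member UMIs and others moved about 2-fold. *Rpl23*, *Rplp2* and *Rps16* were among those that varied least, with SDs of log2 share between 0.068 and 0.075 over the 8 libraries, and *Rpl23* ranged from 5570 CPM in d1 EpiLC to 7739 CPM in S+L ESC. The 5 that varied most were *Rps27l* (SD 0.51), *Rpl38* (0.39), *Rps28* (0.39), *Rpl39* (0.36) and *Rps27rt* (0.36), a near copy of *Rps27*. *Rps28*, a small protein near the mRNA exit of the small subunit, had a level in CPM of 2209 in 2i ESC, 2612, 1974 and 3476 on days 1, 2 and 3 of EpiLC, 3836 in EpiSC, 3376 and 3969 in EB of days 2 and 4, and 4011 in S+L ESC. *Rpl38*, known for a part in the translation of Hox mRNAs, had one of 1652 in 2i ESC, 1830, 1774 and 3326 on days 1, 2 and 3 of EpiLC, 3118 in EpiSC, 2475 and 2911 in EB of days 2 and 4, and 2785 in S+L ESC. In both genes 2i ESC and d1 and d2 EpiLC were low and the other 5 libraries high, with no overlap.

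Most of these members have annotated transcripts under 500 bases, and in several comparisons such members and other genes of that length moved together. Over all lengths, the Spearman correlation of the log2 ratio with length from d2 EpiLC to EpiSC was -0.52 in members and -0.082 in other genes. The 12 members with transcripts under 500 bases (*Rps27l*, at 499 bases, lies just inside) held the following share of member UMIs: 10.6% in 2i ESC, 12.9%, 10.7% and 13.03% on days 1, 2 and 3 of EpiLC, 14.8% in EpiSC, 12.2% and 12.98% in EB of days 2 and 4, and 12.9% in S+L ESC. Among the genes outside the family, those with transcripts under 500 bases held the following share of the remaining UMIs: 1.002% in 2i ESC, 1.12%, 0.895% and 1.22% on days 1, 2 and 3 of EpiLC, 1.45% in EpiSC, 1.196% and 1.32% in EB of days 2 and 4, and 1.29% in S+L ESC. Both sets were lowest in 2i ESC and d2 EpiLC and highest in EpiSC. The short members are therefore not set apart from other short transcripts by these values, and the part that library preparation has in this was not tested.

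**Figure D2:**
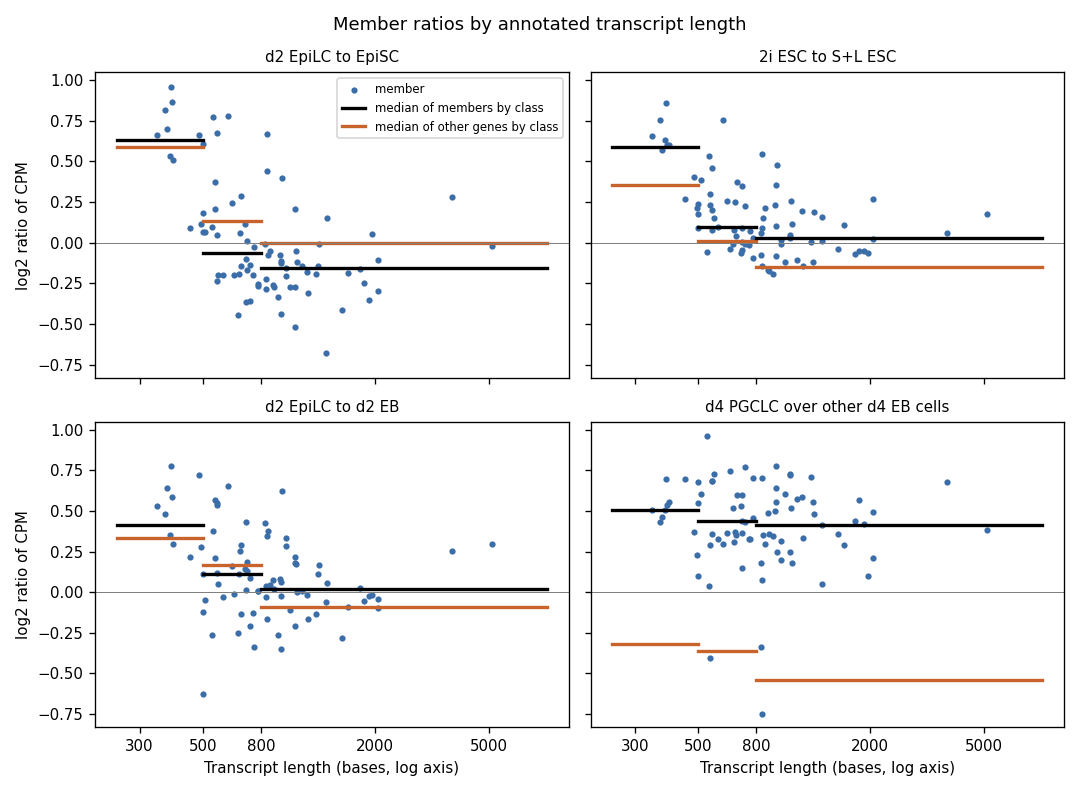
Log2 ratio of CPM against annotated transcript length in bases (log axis) for the members in 4 comparisons, with the median of members (black) and of other genes (orange) for lengths under 500, of 500 to under 800 and of 800 bases and over. From d2 EpiLC to EpiSC the shortest class rises in both sets, by medians of 0.63 and 0.59, while in d4 PGCLC members of every class lie above the other genes.

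From 2i ESC to d2 EpiLC, as naive cells pass to the formative state, members fell as a set while most genes rose. The share went from 38.8% to 34.7%, a ratio of 0.895 (0.893 to 0.896), and the median log2 ratio was -0.16 over the 84 members with at least 50 CPM, against 0.20 over all 2320 genes at that level. A gene is counted below as higher when it was up by at least 25% and as lower when it was down by at least 20%. Of the 84 members 2 were higher and 7 lower, where 38.4% and 14.1% of all genes were. Scaled to the UMIs of genes outside the family, the counts were 1 and 28. *Rps4x*, the X-linked gene of a small subunit protein, fell most, from 5884 to 4092 CPM (log2 ratio -0.52, -0.54 to -0.51), followed by *Rps20* (-0.47), *Rpl32* (-0.44), *Rps7* (-0.39) and *Rpl36a* (-0.37). *Rps27l*, a paralog of *Rps27* known as a p53 target, rose from 1515 to 2021 CPM (0.42) and *Rps26* from 2167 to 2835 CPM (0.39), and *Rplp0* (0.21) and *Rps27rt* (0.16) were also among the highest, both up by less than 25%. The share was already at 33.8% at day 1, a ratio to 2i ESC of 0.872 (0.871 to 0.873).

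From d2 EpiLC to EpiSC, the passage to primed cells that no longer give rise to PGCLC readily, the total hardly moved. Members were counted as higher or lower less often than genes in general, while short members rose as a class. The share was 34.7% in d2 EpiLC and 34.5% in EpiSC, a ratio of 0.996 (0.994 to 0.997), and the median log2 ratio was -0.10 over 84 members and 0.0096 over 2457 genes. Higher were 16 members and lower 9, against 25.0% and 21.4% of all genes. The 5 with the largest rises were *Rps28* (0.96), *Rps29* (0.86), *Rpl38* (0.81), *Rpl39* (0.78) and *Rpl41* (0.77), all small proteins, and *Rps29* went from 3088 to 5622 CPM. The largest fall was that of *Rpl3*, a core protein near the peptidyl transferase center, from 4736 to 2964 CPM (-0.68), ahead of *Rpl13a* (-0.52), *Rpl8* (-0.44) and *Rpl4* (-0.41). By length, the 12 members under 500 bases had a median of 0.63 and the 41 of 800 bases and over one of -0.16, and the 28 other genes under 500 bases had a median of 0.59.

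*Rps28* and *Rpl39* were also among the 5 largest rises in S+L ESC and in d2 EB. From 2i ESC to S+L ESC, both naive cultures, the share rose from 38.8% to 42.1% (ratio 1.09, 1.09 to 1.09). Of 84 members 17 were higher and 0 lower, against 13.5% and 29.0% of all 2084 genes, and the members' median was 0.095 where that of all genes was -0.11. *Rps28* (0.86), *Rpl39* (0.75), *Rpl38* (0.75), *Rps27* (0.66) and *Rpl36* (0.63) rose most. *Rpl7a* (-0.19), *Rps7* (-0.17), *Rps6* (-0.17), *Rpl7* (-0.14) and *Rps19bp1* (-0.14) were lowest, none down by 20%. Members under 500 bases had a median of 0.58 and other genes of that length one of 0.36.

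From d2 EpiLC to d2 EB, the first step of PGCLC induction, the share rose from 34.7% to 36.9% (ratio 1.06, 1.06 to 1.07). Of 84 members 19 were higher and 3 lower, against 25.3% and 32.1% of 2423 genes, or 24 and 1 when scaled to genes outside the family. *Rps28* (0.77), *Rpl36a* (0.72), *Rpl39* (0.65), *Rps27rt* (0.64) and *Rpl35* (0.62) rose most. Paralogs were among the members that fell, *Rps27l* from 2021 to 1308 CPM (-0.63) and *Rpl36al* from 1574 to 1244 CPM (-0.34), together with *Rpl8* (-0.35), *Rpl4* (-0.28) and *Rpl7a* (-0.26).

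**Figure D3:**
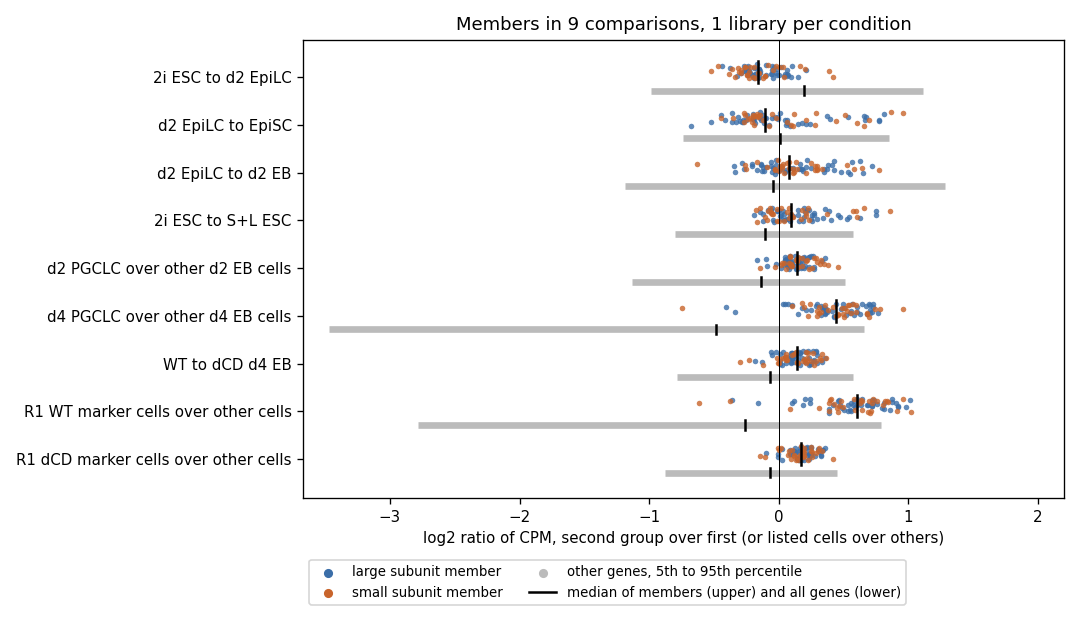
Log2 ratio of CPM of each member with at least 50 CPM in 9 comparisons (blue, large subunit; orange, small subunit), with the 5th to 95th percentile of other genes as a grey bar and medians as black ticks. In the listed d4 PGCLC the members' median is 0.44 and that of all genes -0.49, under a filter that genes high in the other cells pass more readily.

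Within EB, the listed PGCLC carried more ribosomal protein UMIs than the cells around them, and more so at day 4. The study found these cells by k-means clustering of t-SNE maps and the enrichment of core PGC genes. Members may have entered the maps, so what follows describes these cells and tests nothing. At d2 the share was 40.5% in the 91 PGCLC and 36.0% in the 446 other cells, a ratio of 1.12 (1.12 to 1.13), and at d4 it was 45.7% in the 44 PGCLC and 32.9% in the 324 other cells, a ratio of 1.39 (1.38 to 1.39). The d2 PGCLC were deeper, with medians of 29664 UMIs against 24045.5, and thinned to 15374 UMIs per cell the d2 shares were 39.7% and 36.4%. At d4, 38 of the 44 PGCLC lay above the 95th percentile of the other cells, while at d2 it was 24 of 91. From d2 to d4 the share rose in PGCLC (ratio 1.13) and fell in the other cells (0.914). A d4 PGCLC held a median of 10370.5 member UMIs and 13369 UMIs of other genes, where the other d4 cells held 6969.5 and 14293.5. At d2 the PGCLC held more of both, with 11712 and 17943 against 8734 and 15188. UMIs per cell also follow depth, so these medians do not tell which part differed. The mitochondrial share was 3.92% in d4 PGCLC and 3.72% in the others, and 11 immediate early and stress genes, a sign of handling, summed to 333 and 1319 CPM; their part was not tested.

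Most of the family was higher in d4 PGCLC, on both subunits. Of 84 members 62 were higher and 3 lower, against 12.6% and 59.5% of 2536 genes, and the median log2 ratio was 0.44 for members and -0.49 for all genes. The filter of 50 CPM uses the UMIs of both groups added up, 1054626 from PGCLC and 8548972 from the other cells. Genes high in the other cells thus pass more readily than genes high in PGCLC, which can lower the values of all genes. Of 6 PGC genes, at 407 CPM in d4 PGCLC, 0 passed, and of 6 primitive erythroid genes 5 did. The median was 0.42 for the 50 large and 0.47 for the 34 small subunit members, and 0.50 for members under 500 bases against 0.41 for those of 800 and over, so the length classes lay close to each other here. *Rps12*, a small subunit protein, was highest, at 8201 CPM in d4 PGCLC and 4212 in the other d4 cells (log2 ratio 0.96, 0.927 to 0.995). *Rps23*, at the decoding center, followed with 10793 against 6293 CPM (0.78), then *Rpl30* (0.77), *Rps10* (0.75) and *Rpl26* (0.73). At d2, 6 of 84 members were higher and 0 lower, against 9.77% and 32.9% of 2406 genes, and *Rps12* was again highest, at 7281 against 5296 CPM (0.46), before *Rps27* (0.38), *Rpl37* (0.36), *Rps29* (0.35) and *Rpl13a* (0.33).

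The members that went the other way in d4 PGCLC were not the usual core of the family, apart from *Rpl10*. *Rps19bp1* was at 75.9 CPM in d4 PGCLC and 127 in the other cells (-0.75, -1.09 to -0.42, from 80 UMIs in PGCLC), *Rpl22l1* at 1324 and 1751 CPM (-0.40, -0.48 to -0.32), and *Rpl10*, an X-linked gene whose protein is among the last to join the large subunit, at 3232 and 4083 CPM (-0.34). *Rpl41* (0.037) and *Rplp0* (0.047) were next. In d2 PGCLC *Rpl10* was also lowest (-0.17), with *Rps19bp1* (-0.14), *Rpl11* (-0.10), *Rpl5* (-0.09) and *Rps4x* (-0.027); the proteins of *Rpl5* and *Rpl11* bind Mdm2 outside the ribosome.

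Near-identical copies limit what single members show. For 16 of 85 members with a coding transcript, more than 50% of the 31-base words in the last 300 bases also occur in another gene of the E14Tg2a table, and reads from such stretches could be split or dropped. The share was 100% for *Rpl10*, whose copy *Rpl10-ps3* holds all of them, and 94.8% for *Rps12*, with *Rps12-ps3*, copies looked at after the values were seen. *Rps12-ps3* was at 919 CPM in d4 PGCLC and 477 in the other cells (log2 ratio 0.94), and with it added *Rps12* had a ratio of 0.96. *Rpl10-ps3* was at 113 and 130 CPM, and with it added *Rpl10* had a ratio of -0.33, so both directions stayed. *Rpl29* did not keep its direction, with a ratio of 0.15 alone and of -0.043 with *Gm10709*, a copy at 1584 and 1647 CPM. *Rpl41*, *Rplp1*, *Rpl35*, *Rps26* and *Rpl7a* are also among the 16. All genes with -ps names and *Rpl39l* together held 0.119% to 0.173% of UMIs in the E14Tg2a libraries.

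The R1 libraries allow a look at PGCLC-like cells chosen by marker genes outside the family. Members enter that choice only through the total UMIs of a cell, to which the thresholds are scaled. Marked cells need not be PGCLC, and the other cells can hold PGCLC that miss a threshold. The study marks PGCLC-like R1 cells by *Prdm1* or *Dppa3* above a threshold with *Klf4* below one (written *Prdm1orDppa3*+/*Klf4*-), which gave 89 of 1416 WT and 118 of 1699 dCD cells. The members' share was 31.1% in these WT cells and 20.4% in the other WT cells, a ratio of 1.53 (1.52 to 1.53). In dCD it was 26.5% and 23.3%, a ratio of 1.14 (1.13 to 1.14). The marked cells were deeper, with medians of 16253 and 13034 UMIs in WT and 14368 and 11634 in dCD, and thinned to 6831 UMIs per cell the shares were 31.4% and 20.8% in WT and 26.7% and 23.5% in dCD. In WT 71 of 83 members were higher and 3 lower, against 18.3% and 45.8% of 3379 genes, and in dCD 7 of 82 were higher and 0 lower, against 9.51% and 22.0% of 3261 genes. The filter leans the same way here, as the other cells hold most of the UMIs. Of 6 PGC genes 0 passed it in either genotype.

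Across members, the pattern in the marked WT cells resembled that of the listed E14Tg2a PGCLC, with a Pearson correlation of log2 ratios of 0.73 over 83 members, and 0.64 over 82 members for dCD. This is a description across genes, which share depth and base composition and are not replicates. *Rps12* was again highest, at 6816 CPM in the marked WT cells and 3367 in the others (1.02), and so it was in dCD at 5649 and 4221 CPM (0.42). *Rpl30* (0.98) and *Rps23* (0.91) were high in WT too, and *Rps19bp1* low (-0.38). *Rps27l*, named here after its values were seen, was lowest in WT, at 824 CPM against 1262 (-0.62). *Rpl22l1* and *Rpl10*, lower in the E14Tg2a d4 PGCLC, were higher in the marked WT cells, *Rpl22l1* at 776 against 534 CPM (0.54) and *Rpl10* at 1278 against 1178 CPM (0.12).

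**Figure D4:**
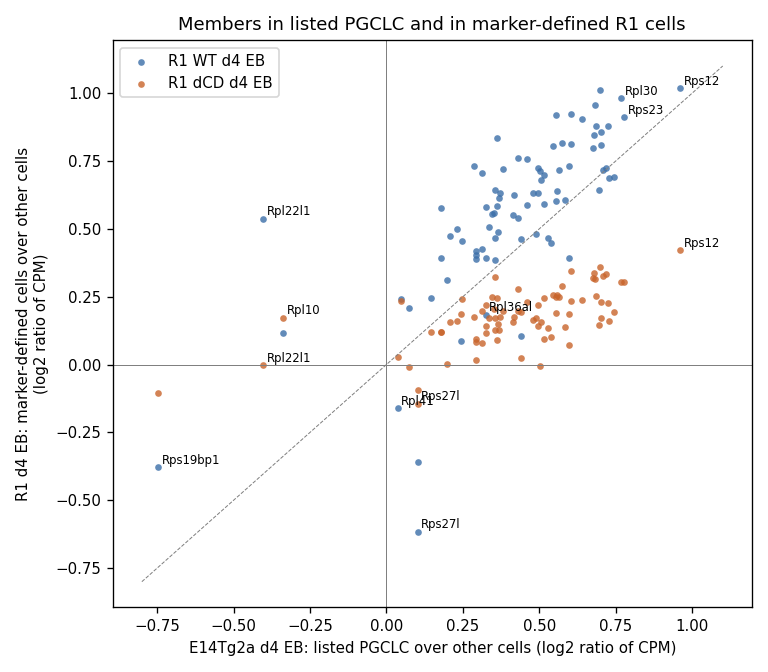
Log2 ratio of CPM of each member in the listed d4 PGCLC of E14Tg2a (horizontal axis) and in the marked R1 cells (vertical axis; blue, WT; orange, dCD), each over the other cells of its library; the dashed line marks equal ratios. Of 83 members 70 lie above the line in WT, and of 82 members 78 lie below it in dCD, with Rps12 at 0.96 in E14Tg2a, 1.02 in WT and 0.42 in dCD. The cells were chosen by different rules, and the members' share in the other cells was 32.9% in E14Tg2a, 20.4% in WT and 23.3% in dCD. Both bear on the size of a ratio. Scaled to genes outside the family, the log2 ratio of the summed members was 0.78 in E14Tg2a, 0.82 in WT and 0.25 in dCD.

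Between WT and dCD d4 EB the family differed slightly and in opposite directions in the marked and in the other cells. Over all cells the share was 21.1% in WT and 23.5% in dCD (ratio 1.11, 1.11 to 1.11). Of 83 members 5 were higher in dCD and 0 lower, against 11.5% and 21.4% of 3320 genes. Per cell the median member UMIs were 2765.5 in WT and 2733 in dCD, and those of other genes 10294.5 and 8941. UMIs per cell also follow the depth of a library, so these medians do not tell which part differed. Thinned to 6831 UMIs per cell the shares were 21.5% in WT and 23.8% in dCD. The mitochondrial share was 5.21% in WT and 6.84% in dCD. Cell types moved with it too, as 8 primitive streak and mesoderm markers summed to 862 CPM in WT and 190 in dCD and 6 extraembryonic ectoderm markers to 23.9 and 221 CPM. The part of either in the members' share was not tested. *Rps14* (0.36), *Rpl28* (0.36), *Rps20* (0.33), *Rpl10a* (0.33) and *Rps21* (0.33) were highest in dCD, with *Rpl28* at 2922 CPM in WT and 3752 in dCD. *Rps19bp1* (-0.30), *Rps27rt* (-0.23), *Rpl41* (-0.19) and *Rplp0* (-0.13) were among the lowest.

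In the marked cells the share was 31.1% in WT and 26.5% in dCD, a ratio of 0.851 (0.848 to 0.855), and in the other cells 20.4% and 23.3%, a ratio of 1.14 (1.14 to 1.14). Of 83 members 17 were lower and 2 higher in the marked dCD cells, against 18.3% and 21.9% of 2994 genes, or 1 higher and 44 lower when scaled to genes outside the family. In the other cells 11 members were higher and 0 lower, against 12.2% and 23.0% of 3346 genes. *Rps12* was at 6816 CPM in marked WT and 5649 in marked dCD cells (-0.27), and at 3367 and 4221 CPM in the other cells (0.33). The marked cells had a median of 4792 member UMIs in WT and 3832.5 in dCD, and 10752 and 10184 UMIs of other genes. The marked cells of the genotypes are not alike in makeup. The 6 PGC genes summed to 763 CPM in WT and 481 in dCD, and the extraembryonic ectoderm markers to 92.9 and 635 CPM. A change within a cell type and a different mix of cells therefore cannot be told apart in the marked cells. The same holds for the other cells, where the primitive streak and mesoderm markers summed to 923 CPM in WT and 203 in dCD.

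Among the cells that are neither listed nor marked, the share also differed with markers of other cell types and, in R1 but not alike in E14Tg2a, of PGC. The 133 such R1 WT cells with the most UMIs of the 6 PGC genes had a median share of 28.3%, and the rest 20.0%. For the top 159 dCD cells it was 26.2% against 23.6%. In E14Tg2a the values by PGC genes were 36.9% against 36.8% at d2 and 31.7% against 33.0% at d4. Of the other d2 EB cells of E14Tg2a, the 45 with the most UMIs of the 6 extraembryonic ectoderm markers had a median share of 30.7% where the rest had 37.1%, and at d4 the 33 top cells had 28.7% against 33.3%. In R1 the 133 top WT cells also lay lower, at 19.2% against 20.7%, but the 159 top dCD cells lay higher, at 25.6% against 23.6%. By 8 primitive streak and mesoderm markers the top cells were lower in R1, at 19.7% against 20.7% in WT and 21.1% against 24.2% in dCD. In E14Tg2a the values were 38.03% against 36.7% at d2, the other way, and 32.2% against 33.0% at d4. By the naive pluripotency genes they were 36.7% against 36.8% at d2 and 34.9% against 32.4% at d4. In R1 they were 24.7% against 20.1% in WT and 24.5% against 23.7% in dCD. Endothelium markers gave 37.8% against 36.7% at d2 and 35.6% against 32.4% at d4. For R1 they gave 20.59% against 20.62% in WT and 22.5% against 24.0% in dCD.

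The share of a paralog in its pair differed between libraries with the level of the paralog, of the usual member or of both. From 2i ESC to S+L ESC, for example, *Rps27l* rose from 1515 to 1784 CPM but *Rps27* from 2757 to 4351 CPM. *Rps27l* made up the following share of the UMIs of itself and *Rps27*: 35.5% in 2i ESC, 40.5%, 41.8% and 32.7% on days 1, 2 and 3 of EpiLC, 40.8% in EpiSC, 24.4% and 21.9% in EB of days 2 and 4, and 29.1% in S+L ESC. Of the E14Tg2a libraries the EB were thus lowest, also by level, at 1308 and 1107 CPM, and EpiSC highest by level, at 3074 CPM. In the R1 d4 EB the share was 41.7% in WT and 40.4% in dCD. *Rpl36al* as a share of itself and *Rpl36a* was likewise lowest in the E14Tg2a EB, at 27.2% (d2) and 26.1% (d4). It was highest at 43.8% in d2 EpiLC, where *Rpl36a* was at its lowest among the E14Tg2a libraries (2015 CPM). In R1 it was 35.5% in WT and 32.4% in dCD. *Rpl22l1*, which is known to rise where *Rpl22* is lost, ranged over the E14Tg2a libraries from 37.7% of the pair in d2 EpiLC to 49.5% in d4 EB, with 27.0% in R1 WT and 26.9% in dCD. In d4 PGCLC it was 36.1% (34.6% to 37.6%) against 51.3% in the other d4 cells, as *Rpl22l1* was lower and *Rpl22* higher there (2346 against 1665 CPM), while at d2 the shares were 49.2% and 47.7%. *Rps27rt* kept to 5.06% to 6.39% of itself and *Rps27* in all 8 E14Tg2a libraries, and 89.3% of its 31-base words near the 3′ end are also in *Rps27*, so reads of the pair may not be told apart. In the E14Tg2a libraries *Rpl7l1*, which acts in the making of the large subunit, was at 85.5 to 137 CPM, and *Rpl6l* at 86.9 to 156 CPM.

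**Figure D5:**
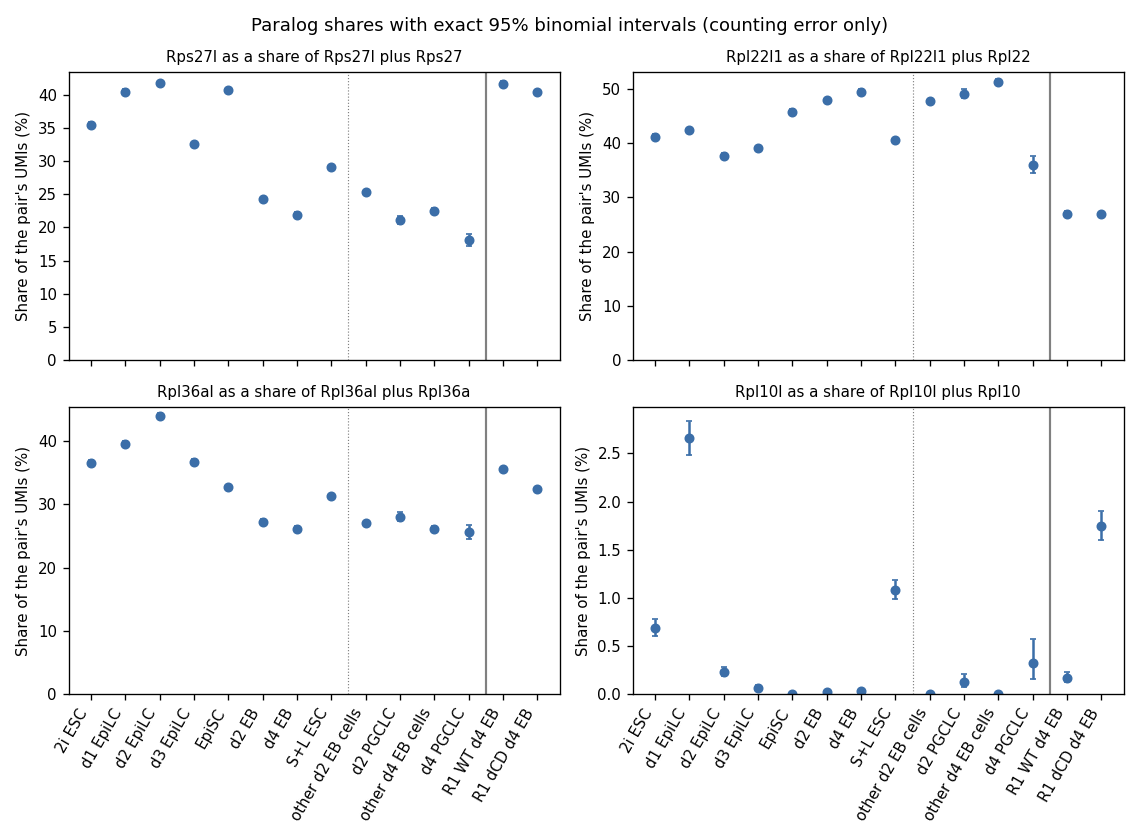
UMIs of a paralog as a share (%) of the UMIs of the paralog and its usual member, by library and for PGCLC against the other EB cells, with exact 95% binomial intervals; E14Tg2a stands left of the solid line and R1 right of it. Within E14Tg2a, Rps27l and Rpl36al are lowest in EB, and across the libraries Rpl10l is highest in d1 EpiLC (2.66%) and, in R1, in dCD (1.75%).

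*Rpl10l*, the retrogene of *Rpl10* known for replacing it in meiotic cells, was the member that changed most in relative terms. Its level in CPM was 26.7 in 2i ESC, 76.0, 7.62 and 2.34 on days 1, 2 and 3 of EpiLC, 1.16 and 1.35 in EB of days 2 and 4, and 44.1 in S+L ESC, and it had 0 UMIs in EpiSC, which allows up to 0.235 CPM (3 counts in the library). It was thus highest in ESC and d1 EpiLC and not detected in EpiSC, with a UMI in 86.4% of d1 EpiLC (median 36750 UMIs) and in 0 of 373 EpiSC (median 31587 UMIs). In PGCLC it was at 5.11 CPM at d2 (15 UMIs) and 10.4 at d4 (11 UMIs), against 2 UMIs in the other cells at each day, for ratios of 29.96 (6.97 to 270.0) and 44.6 (9.73 to 414). In R1 it was at 2.04 CPM in WT and 21.9 in dCD d4 EB, a ratio of 10.7 (7.82 to 15.1), with a UMI in 2.12% of WT and 19.0% of dCD cells at medians of 13187.5 and 11751 UMIs. The ratio was 11.3 (8.07 to 16.4) within the other cells and 6.83 (2.93 to 19.5, from 6 UMIs in WT) within the marked ones.

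*Rpl39l*, the paralog of *Rpl39* that the rule leaves out and that was looked at after its values were seen, was also highest in d1 EpiLC and S+L ESC. *Rpl39l* had a level in CPM of 85.8 in 2i ESC, 269, 34.3 and 9.87 on days 1, 2 and 3 of EpiLC, 11.9 and 15.6 in EB of days 2 and 4, and 194 in S+L ESC, with 0 UMIs in EpiSC. It was at 110 CPM in d4 PGCLC and 3.98 in the other d4 cells, and at 4.52 CPM in WT and 72.9 in dCD. *Rpl3l* had 28 UMIs in dCD and 2 in WT (ratio 12.6, 3.18 to 109) and, in E14Tg2a, 1 (d3 EpiLC) to 27 UMIs (S+L ESC) per library, with 22 in 2i ESC, 21 in d1 EpiLC and 5 in EpiSC. Markers of 2-cell-like cells moved with these genes in part: 6 such markers summed to 23.1 CPM in dCD and 0.049 in WT, and to 20.0 CPM in S+L ESC, but to 0.27 CPM in d1 EpiLC and to 0 in d4 PGCLC. The summed naive markers were 869 CPM in dCD and 564 in WT. What part either has in the levels of the paralogs was not tested.

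*Fau* and *Rack1*, outside the symbol rule, were higher in d4 PGCLC, as most members were. *Fau* was at 4604 CPM in d4 PGCLC and 3566 in the other cells (0.37), and *Rack1*, a scaffold on the small subunit, at 3116 and 2278 CPM (0.45). Between d2 EpiLC and EpiSC *Rack1* had a log2 ratio of -0.39 and *Fau* one of -0.30.

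Other lists of the translation machinery had medians below the 0.44 of the members in d4 PGCLC, where 12.6% of all genes were higher and 59.5% lower with a median of -0.49. Of 12 elongation genes past the filter, 2 were higher and 2 lower in d4 PGCLC (median -0.11), with *Eef1e1* (0.60) and *Eef1b2* (0.33) highest and *Eif5a* (-0.83) and *Gspt1* (-0.38) lowest. Of 31 initiation genes 2 were higher and 12 lower (median -0.24), with the RNA helicase gene *Eif4a2* at 398 against 173 CPM (1.21), *Eif2s2* (1.05), *Eif1b* (-1.29) and *Eif4g2* (-1.15). Of 29 ribosome biogenesis genes 11 were higher and 2 lower (median 0.20), with *Taf1d* (0.99) and *Tcof1* (0.83), both of RNA polymerase I transcription, highest and *Rrp1* (-0.98) and *Utp11* (-0.54) lowest. In the marked R1 WT cells 31 of 46 biogenesis genes were higher and 4 lower (median 0.48), against 18.3% and 45.8% of all genes. In the marked cells of dCD against WT 2 of 45 were higher and 15 lower (median -0.25), against 21.9% and 18.3%. Of the genes of Myc and translation control 6 passed the filter in d4 PGCLC, 0 of them higher and 2 lower (median -0.22). In d2 PGCLC 1 of 5 was higher, *Mycn*, a Myc family activator of biogenesis genes, at 130 CPM against 30.98 in the other d2 cells (2.06).

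Biogenesis genes and ribosomal protein genes had medians of opposite sign on entering and on leaving the d2 EpiLC stage towards EB, but not towards EpiSC. From 2i ESC to d2 EpiLC 24 of 39 biogenesis genes were higher and 0 lower (median 0.41), against 38.4% and 14.1% of all genes, while the members' median was -0.16; *Ebna1bp2* rose from 121 to 298 CPM (1.29) and *Gar1* from 110 to 246 CPM (1.17), with *Dkc1* (-0.30) and *Sbds* (-0.27) lowest. Between d2 EpiLC and d2 EB 26 of 35 were lower and 0 higher (median -0.58), against 32.1% and 25.3% of all genes, while the members' median was 0.078, and *Utp14a* (-1.15) and *Rrp9* (-1.14) fell most where *Polr1d* (0.13) and *Nop53* (0.06) were highest. *Mycn* went from 49.0 CPM in 2i ESC to 106 in d2 EpiLC and 50.7 in d2 EB, and *Larp1*, the repressor that binds the tract shown above, from 66.2 to 156 and 116 CPM. Between d2 EpiLC and EpiSC 3 of 40 biogenesis genes were higher and 17 lower (median -0.24), against 25.0% and 21.4% of all genes, and the members' median was -0.10. Between WT and dCD 2 of 44 were higher and 4 lower (median -0.071), against 11.5% and 21.4%.

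Over the 8 E14Tg2a libraries, the level of most members followed that of the family. The Pearson correlation of log2 CPM with the summed members had a median of 0.72 over 84 members, of which 46 were above 0.7, and of -0.33 over 2261 other genes, of which 36 were; each member is part of the sum and all points share the total of 1000000 UMIs, which a family of this size pulls down for other genes. *Rplp0* (-0.67) and *Rps19bp1* (-0.49) were the members that followed it least. The 5 genes outside the family that followed it most were *Csnk1a1* (0.93), *Pim3* (0.92), *Agtrap* (0.92), *Cox7b* (0.88) and *Ndufa7* (0.85), the last 2 of the mitochondrial respiratory chain, with 8 libraries as the points.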

How the data were processed

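Single-cell libraries of 10 conditions were analysed from the UMI counts deposited by the authors. The authors made the E14Tg2a counts on mm10 with Cell Ranger after bringing libraries to a common depth of mapped reads per cell, and deposited the R1 counts after removing cells with fewer than 2000 expressed genes; the gene annotation of either table is not given in the sources used here. E14Tg2a cells were assigned to libraries by the suffix of their barcode, which the study's supplement pairs with a stage. Symbols were paired with 27722 of 27998 Ensembl identifiers through GENCODE vM21. Members and lists were chosen with earlier results of these data known.

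Each group's UMIs were added up and expressed per 1000000 (CPM). Shares have Clopper-Pearson, CPM Poisson and ratios exact conditional 95% intervals. Comparisons across genes used genes with at least 50 CPM over both groups, and a gene was counted as higher or lower when up by 25% or down by 20%. No test was run. Genes named are taken from the 5 highest and 5 lowest members of each comparison, the 5 most abundant, the 5 most and least variable, the paralogs, the 2 highest and 2 lowest of a pathway list and the 5 most alike outside the family. R1 cells were marked by *Dppa3* above 0.1 or *Prdm1* above 1 with *Klf4* below 1, as natural log of 1 plus UMIs per 10000. Doublets were not called; an alternative leaves out the 5% of cells with the most UMIs. Lengths are medians over principal transcripts. Sequences are from RefSeq (GRCm38.p6). Computations used Python 3.11.15, numpy 2.4.6 and scipy 1.17.1 and were tested on simulated data. 0 columns of values were left unused. Values of a few genes that the rules name are not reported here.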

Additional observations from a re-analysis of the deposited data

Results flagged for a closer look

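The members' share from WT to dCD d4 EB had opposite directions in 2 kinds of cells, with a log2 ratio of -0.23 in the *Prdm1orDppa3*+/*Klf4*- cells and of 0.19 in the other cells. The marked cells differ in makeup between the genotypes, with PGC genes at 763 CPM in WT and 481 in dCD and extraembryonic ectoderm markers at 92.9 and 635 CPM. With 1 library per genotype the difference between these ratios was not tested.

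*Rpl22l1* had a log2 ratio of 0.14 in d2 PGCLC and of -0.40 in d4 PGCLC, each over the other cells of its library, and the difference was not tested. *Rpl11* (-0.10 at d2 and 0.07 at d4), *Rpl5* (-0.09 and 0.21) and *Rps4x* (-0.03 and 0.31) also changed direction between the days, each with intervals for counting error that leave out 0, and these differences were not tested either.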

How the results depend on the processing

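No log2 ratio of the members' share changed direction under an alternative, in the 7 comparisons described; values that left the counting interval follow. From 2i ESC to d2 EpiLC the ratio was -0.16, and -0.15 thinned to 1 depth, -0.13 as a median over cells, -0.16 with the usual ribosomal proteins, -0.18 on a total without mitochondrial genes and -0.15 without the 5% of cells with the most UMIs. From d2 EpiLC to EpiSC it was -0.0065, and -0.015 as a median, -0.019 with the usual proteins, -0.0029 without mitochondrial genes, -0.012 without the top 5% and -0.073 with members of 500 bases and over, an alternative chosen after seeing the data. From d2 EpiLC to d2 EB it was 0.091, and 0.10 thinned, 0.11 as a median, 0.10 without mitochondrial genes, 0.10 without the top 5% and 0.067 with longer members. From 2i ESC to S+L ESC it was 0.12, and 0.12 thinned, 0.14 as a median, 0.12 with the usual proteins, 0.12 without mitochondrial genes, 0.13 without the top 5% and 0.083 with longer members. In d2 PGCLC it was 0.17, and 0.12 thinned, 0.11 as a median, 0.18 without mitochondrial genes, 0.13 without the top 5% and 0.16 with longer members. In d4 PGCLC it was 0.47, and 0.48 as a median, 0.49 without the top 5% and 0.47 with longer members. From WT to dCD it was 0.15, and 0.14 thinned, 0.20 as a median, 0.18 without mitochondrial genes, 0.15 without the top 5% and 0.16 with longer members. The causes were not tested. Adding the copies with -ps names and *Rpl39l*, also chosen after seeing the data, kept all 7 within the interval. At 1.5-fold the members higher fell from 62 to 22 in d4 PGCLC, from 71 to 45 in marked WT cells, from 17 to 7 in S+L ESC and from 19 to 5 in d2 EB, and to 0 in d2 EpiLC, d2 PGCLC and dCD. Members lower at 1.5-fold went from 9 to 1 in EpiSC, from 7 to 0 in d2 EpiLC and from 17 to 1 in marked dCD cells. Scaled to other genes, members higher went from 6 to 20 in d2 PGCLC, from 5 to 11 in dCD, from 7 to 13 in marked dCD cells and from 11 to 23 in other dCD cells, and members lower from 17 to 44 in marked dCD cells. Without a filter on CPM members lower in d2 EB went from 3 to 5. No paired analysis was possible because each condition had 1 library. That also limits every value: library preparation, culture and condition cannot be told apart.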
